A study of Homo sapiens with 10 samples.

Results

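The caspases, the apoptosome scaffold APAF1 and the caspase inhibitor XIAP were examined in ST486 cells, an established human Burkitt's lymphoma line, after knock-down of the kinase STK38. Members were all probe sets whose platform annotation names only 1 of CASP2, CASP4, CASP6, CASP8, CASP9, CASP10, APAF1 and XIAP. They came to 17 probe sets of 8 genes among 12558 probe sets on the array once Affymetrix controls were removed. The cells carried a lentiviral short hairpin RNA (shRNA) against STK38, TRCN0000010215, or the non-target control hairpin SHC002 for 60 h. Each group held 5 Affymetrix HG-U95Av2 arrays, and every value below is the authors' deposited log2 expression value unless a fold is named. The labels give a single STK38 hairpin, so its off-target effects and those of STK38 loss cannot be told apart. The labels do not say whether replicates were separate cultures, so the p-values reflect array-to-array spread that may be only technical.

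Caspases are cysteine proteases that cut their targets after aspartate and are made as inactive precursors. In the mitochondrial route, cytochrome c released into the cytosol binds APAF1, which assembles into the apoptosome and activates caspase-9. In the death receptor route, FADD recruits caspase-8 and its close relative caspase-10 to receptors such as FAS. These initiators then activate the executioners, among which caspase-6 cuts nuclear lamins, while caspase-2 is an initiator recruited through CRADD and PIDD1. XIAP binds and blocks caspase-9 and executioners other than caspase-6. Caspase-4 belongs to the inflammatory branch, where it senses intracellular lipopolysaccharide. The series title asks how STK38 bears on MYC, whose overexpression is known to sensitise cells to apoptosis.

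STK38 itself was lower on every array with its hairpin. Its brightest probe set, 370_at, read 2.95, 2.90, 2.95, 2.46 and 2.88 on STK38 shRNA replicates 1 to 5 and 5.24, 4.80, 4.85, 4.92 and 5.28 on the controls. The difference of the means was -2.19, and -2.10 without STK38 shRNA replicate 4. Its other probe sets were also called lower without overlap, but by less. They had -1.16 at 36217_at (limma adjusted p = 0.0011) and -0.82 at 36218_g_at (limma adjusted p = 0.00407), so the size of the knock-down is uncertain. Of 7 B cell markers on the array 5 stood above background on all 10 arrays, while PAX5 and CR2 did so on none. Of the 5 B cell markers tested 1 was called higher and 0 lower, while 4 of 4 germinal centre markers were called lower. Markers of T cells, monocytes, epithelium, and fibroblasts and endothelium were above background on all arrays for 1 of 24 genes. Of the 11 of these tested, the 2 T cell markers were called lower and the other 9 were not called. The summed linear signal of the 8 T cell markers on the array was 28.75 to 35.25 with the STK38 shRNA and 43.85 to 54.81 in the controls, with CD3D, CD3E, CD3G, CD4, CD8A and CD2 below background on all arrays. The part of these shifts in the results below was not tested. STK38 shRNA replicate 4 stood apart from its group. Its 75th percentile was 3.53 where the other 4 arrays of the group had 3.93 to 4.01, and its mean correlation with them over the tested probe sets was 0.978 where the lowest of the other 9 arrays had 0.991 with its own group. Member results that rest on it are given with and without it, while for other genes this was done for some only.

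The upstream sequences of CASP9, the member with the largest change, and of CASP8, the other member called at a probe set above background on all arrays, are shown to set the promoters of members that were called higher side by side. They are the 250 bases before a transcription start of RefSeq on GRCh38.p14, read 5′ to 3′ on the gene's strand. Capitals mark GGGCGG or its reverse complement CCGCCC, the core of the GC box bound by SP1-type factors. The CASP9 stretch lies at chr1:15524216-15524465 on the minus strand and the CASP8 stretch at chr2:201233213-201233462 on the plus strand.
CASP9: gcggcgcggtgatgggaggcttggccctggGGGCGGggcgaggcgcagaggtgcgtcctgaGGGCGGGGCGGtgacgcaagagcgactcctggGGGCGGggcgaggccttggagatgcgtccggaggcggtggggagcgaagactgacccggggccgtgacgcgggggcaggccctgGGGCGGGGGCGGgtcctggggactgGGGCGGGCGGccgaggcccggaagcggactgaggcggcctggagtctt
CASP8: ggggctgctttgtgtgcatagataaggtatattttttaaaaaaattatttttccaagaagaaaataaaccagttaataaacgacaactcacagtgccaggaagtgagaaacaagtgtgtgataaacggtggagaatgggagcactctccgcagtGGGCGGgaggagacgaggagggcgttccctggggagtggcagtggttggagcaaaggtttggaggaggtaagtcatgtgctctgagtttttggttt
The CASP9 stretch holds 8 matches, some of which overlap, and the stretch before its other listed start holds 8 as well. The printed CASP8 stretch holds 1, and those before its 2 other starts hold 0. RefSeq windows were matched for 7 of the 8 members, 13 windows in all, and CASP10 had none. The GC box was in 9 of the 13 windows and in 42.6% of all 35116 windows of this length, and 0.584% of all windows held 8 or more matches. Each of the 7 members with a window had a match before at least 1 start, members not called included. A CASP2 window held 4 and that of CASP6 held 3. GC content was 77.6% in the printed CASP9 stretch, 45.6% in the CASP8 stretch and 58% in the median window. CACGTG, the palindromic E-box bound by MYC and MAX, was in 0 of the 13 windows and in 6.34% of all windows. Searched on both strands, the GAS-type letters TTCNNNGAA were in 1 of the 13 (the printed CASP8 stretch) and in 6.57% of all, while the E2F-type letters TTTGGCGC were in 0 of the 13 and in 0.55% of all. The windows of XIAP overlap each other, and a match is a description of letters, not of binding.

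Probe sets of 3 initiator caspases, CASP9, CASP8 and CASP10, rose, while those of CASP2, also an initiator, were not called. No tested member probe set was called lower, and APAF1, XIAP and CASP4 had none that was tested. A probe set is called here at an adjusted p under 0.05 in limma, with Benjamini-Hochberg adjustment over the 7535 probe sets whose mean over all arrays passed a filter on dim signal. Of the 17 member probe sets 11 passed the filter, and 4 of these 11 were called higher, where 14.1% of all tested probe sets were called higher. They belong to CASP9 (both of its probe sets), CASP8 (1 of 3) and CASP10 (1 of the 2 tested, of 4). None of the 11 was called lower, against 15.8% of all tested, and 0 had a lower value at an unadjusted p under 0.05, while 5 had a higher one. In both directions together 29.9% of all tested probe sets were called. The median log2 difference was 0.20 over the 11 member probe sets and 0.018 over all tested. The lowest group mean among the 11 was 2.29, above the filter level of 1.93, so none passed through its brighter group alone.

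Signal over background set what could be read. Each array's background was taken from 23 control probe sets, as the 90th percentile of their values, and lay between 2.36 and 2.66. Of the member probe sets 7 were above it on all 10 arrays, 4 on some and 6 on none. The 7 are the 3 of CASP8, 1 of CASP9, 1 of CASP6 and 2 of CASP2.

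**Figure D1:**
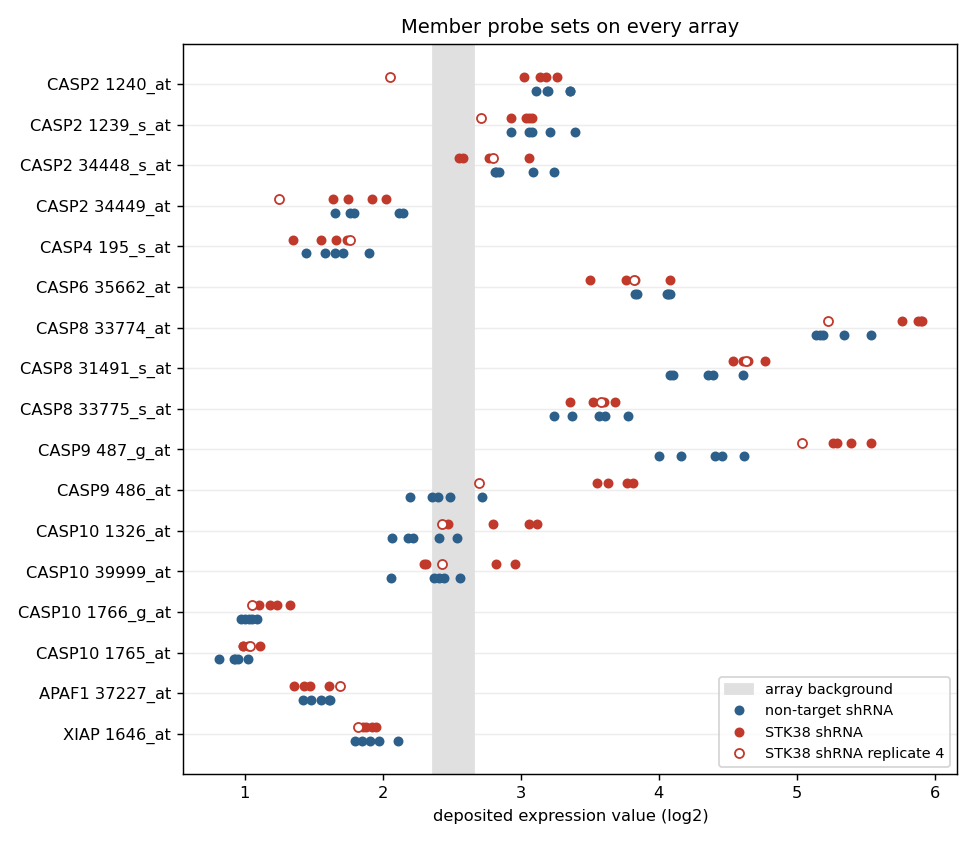
Deposited log2 value of each of the 17 member probe sets (rows) on each array. Blue points are the 5 non-target arrays, red points the STK38 shRNA arrays, the open red circle is STK38 shRNA replicate 4, and the grey band spans the array backgrounds of 2.36 to 2.66. The points of CASP8 and of CASP9 487_g_at lie right of the band on all arrays, and those of APAF1, XIAP and CASP4 lie left of it.

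CASP9, the initiator activated on the apoptosome, rose most among the members. At its brighter probe set, 487_g_at, the STK38 shRNA arrays read 5.54, 5.39, 5.29, 5.04 and 5.26 in replicate order and the non-target arrays 4.41, 4.00, 4.16, 4.46 and 4.62. Every STK38 shRNA array was above every control, and this was the 1 of 11 member probe sets whose groups did not overlap, as was so for 22.1% of all tested (9.33% with the STK38 shRNA higher). The means were 5.30 ± 0.18 and 4.33 ± 0.25 (SD, n = 5 each), a rise of 0.97 on the log2 scale (SE 0.14, limma adjusted p = 8.85e-05), or 1.96-fold with a 95% interval of 1.60 to 2.41. In size it was larger than the differences of 95.4% of all tested probe sets.

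The second CASP9 probe set, 486_at, is dimmer and gave the same direction. It read 3.63, 3.55, 3.77, 2.70 and 3.81 with the STK38 shRNA and 2.20, 2.40, 2.49, 2.72 and 2.36 in the controls. Replicate 4 of the STK38 shRNA overlapped the highest control by a small margin, and the other 4 arrays stood well above all controls. The difference was 1.06 (SE 0.19, limma adjusted p = 5.34e-04), or 2.08-fold, and since 2 of the 5 control arrays were above background the size is uncertain. Without STK38 shRNA replicate 4 it was 1.26 (limma adjusted p = 1.72e-07), and that of 487_g_at was 1.04 (limma adjusted p = 6.35e-06). The pair of probe sets was designed on the same mRNA record, so they are repeated readings of 1 transcript and not independent evidence. These are bulk samples, in which a larger share of cells with the transcript and more RNA per cell cannot be told apart.

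CASP8, the initiator of the death receptor route, was above background on all arrays at its 3 probe sets and was called higher at 1 of them. That one, 33774_at, read 5.90, 5.76, 5.88, 5.23 and 5.91 with the STK38 shRNA and 5.34, 5.19, 5.54, 5.17 and 5.14 in the controls. Replicates 1, 2, 3 and 5 were above every control and replicate 4 was among the controls. The rise was 0.46 (SE 0.14, limma adjusted p = 0.0226), or 1.38-fold with a 95% interval of 1.12 to 1.70. It was 0.59 (limma adjusted p = 3.07e-04) without STK38 shRNA replicate 4. The call was lost, with adjusted p between 0.0511 and 0.0614 in limma, without STK38 shRNA replicate 1, 3 or 5 or non-target replicate 2, 4 or 5.

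The other CASP8 probe sets were not called. At 31491_s_at the arrays read 4.77, 4.54, 4.65, 4.63 and 4.61 against 4.61, 4.08, 4.36, 4.39 and 4.10, so that 1 control reached the STK38 shRNA values. Its difference of 0.33 (SE 0.13) missed the threshold, with a limma adjusted p of 0.0595. It was called without STK38 shRNA replicate 4 (limma adjusted p = 0.0401) and without non-target replicate 1 (limma adjusted p = 0.0243). At 33775_s_at the groups overlapped throughout, from 3.36 to 3.68 with the STK38 shRNA and from 3.24 to 3.78 in the controls. The difference was 0.032 with a 95% interval of -0.24 to 0.31 (limma adjusted p = 0.894), an upper bound below the estimate at 33774_at. Differences between the probe sets were not tested. Each of the 3 was designed on a separate mRNA record, and the ending _s marks sets with probes that match more than 1 transcript.

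CASP10 sits next to CASP8 on chromosome 2 and encodes its closest relative. The level was near background throughout. Its probe set 1326_at read 2.80, 2.47, 3.12, 2.43 and 3.06 with the STK38 shRNA and 2.18, 2.07, 2.22, 2.41 and 2.54 in the controls. It exceeded background on 4 arrays with the STK38 shRNA and on 0 controls, and the groups overlapped. It was called higher with a limma adjusted p of 0.0183, a rise of at least 1.22-fold against the control background. The log2 difference was 0.49, and 0.58 (limma adjusted p = 0.0018) without STK38 shRNA replicate 4. The call was lost without STK38 shRNA replicate 3 or 5 or non-target replicate 2, with limma adjusted p between 0.0504 and 0.0525.

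A second CASP10 probe set on the same mRNA record, 39999_at, was not called. It read 2.30, 2.82, 2.31, 2.43 and 2.96 against 2.06, 2.41, 2.37, 2.56 and 2.44, with 2 arrays of each group above background. Its difference was 0.20 (SE 0.14, limma adjusted p = 0.355). The remaining pair, 1766_g_at and 1765_at, lay between 0.81 and 1.33 on all arrays, below background and below the filter. Their differences were 0.15 and 0.10, with two-sided exact permutation p of 0.0238 and 0.0317, or 0.0952 for each after adjustment over the 6 member probe sets under the filter. No fold is given for them, since neither group was above background.

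**Figure D2:**
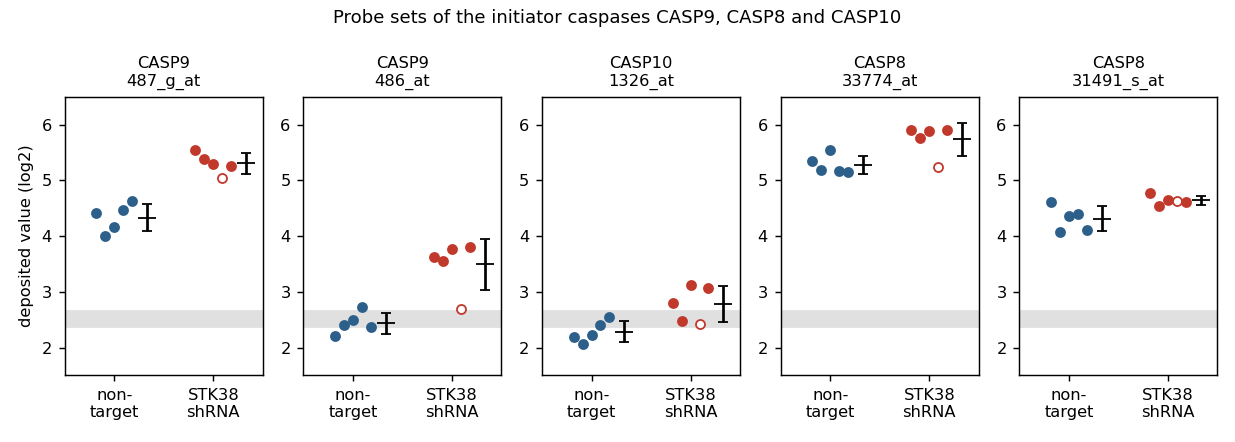
Log2 values by group of the 5 member probe sets with the smallest limma p-values, which belong to CASP9, CASP8 and CASP10. CASP8 33775_s_at (difference 0.032) and CASP10 39999_at (0.20), tested and not called, are not drawn. Points are single arrays, the open circle is STK38 shRNA replicate 4, black bars are the mean ± SD of 5 arrays, and the grey band spans the array backgrounds. CASP9 487_g_at separates fully, with 5.04 as the lowest STK38 shRNA value and 4.62 as the highest control.

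CASP2, an initiator that acts with CRADD and PIDD1, was read by 4 probe sets and called at none. By what is known of their mRNA records, 1239_s_at and 34448_s_at were designed on the long form and 1240_at and 34449_at on the short form, which is known to oppose death. At 1239_s_at the arrays read 3.08, 2.93, 3.04, 2.71 and 3.06 against 3.39, 3.21, 3.06, 3.08 and 2.93, a difference of -0.17 (SE 0.12, limma adjusted p = 0.337). At 34448_s_at they read 2.58, 2.77, 2.55, 2.80 and 3.06 against 3.09, 2.84, 2.81, 3.24 and 2.82, a difference of -0.21 (SE 0.13, limma adjusted p = 0.270). The groups overlapped at each of these, and the 95% intervals ran from -0.43 to 0.085 and from -0.48 to 0.067. Without STK38 shRNA replicate 4 the difference at 1239_s_at was -0.11, while that at 34448_s_at was -0.22 (limma adjusted p = 0.189) and so did not shrink.

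Of the short-form probe sets of CASP2, 1 was above background on 0 arrays. At 1240_at the STK38 shRNA arrays read 3.18, 3.02, 3.14, 2.05 and 3.26 and the controls 3.11, 3.36, 3.19, 3.36 and 3.20. Replicate 4 lay below all others and below its background, and the difference of -0.32 (SE 0.19, limma adjusted p = 0.260) became -0.097 (limma adjusted p = 0.50) without it. That one, 34449_at, had values from 1.25 to 2.15 and a difference of -0.18 (two-sided exact permutation p = 0.325). All 4 CASP2 differences had a minus sign, but none passed the test.

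CASP6, the lamin-cutting executioner, had a single probe set, above background on all arrays. It read 3.83, 4.08, 3.50, 3.82 and 3.76 with the STK38 shRNA and 4.08, 3.83, 3.84, 4.07 and 4.06 in the controls. The difference was -0.18 (SE 0.13, 95% interval -0.45 to 0.097, limma adjusted p = 0.356), and the groups overlapped.

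APAF1, XIAP and CASP4 gave no reading. The APAF1 probe set 37227_at lay between 1.36 and 1.69 on all 10 arrays, the XIAP probe set 1646_at between 1.80 and 2.11 and the CASP4 probe set 195_s_at between 1.35 and 1.90, each below the lowest array background of 2.36. Differences were -0.025, -0.043 and -0.044, with two-sided exact permutation p of 0.738, 0.532 and 0.714. Each rests on 1 probe set, and GCRMA draws dim signal to a common floor, so these values bear neither on whether the genes are expressed nor on whether they changed.

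**Figure D3:**
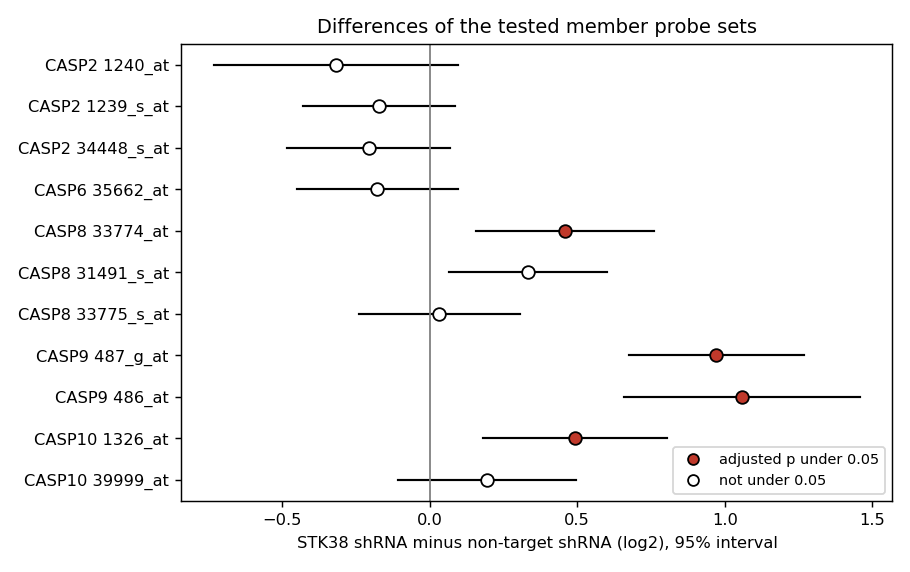
Difference of the group means (STK38 shRNA minus non-target, log2) of the 11 tested member probe sets, with limma's 95% interval. Filled points have an adjusted p under 0.05. CASP9 stands at 0.97 and 1.06, CASP8 33774_at at 0.46 and CASP10 1326_at at 0.49, and the intervals of CASP2 and CASP6 span 0.

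The calls of CASP9 held in all 18 alternatives, with 0.89 to 1.07 at 487_g_at and 0.98 to 1.26 at 486_at. Those of CASP8 33774_at and CASP10 1326_at held in 12 of 18 and 14 of 17. Without STK38 shRNA replicate 4 the count of member probe sets called higher was 5 of 11, and none was called lower. Over all tested probe sets the count higher was also larger without it, 1548 where the fit to all arrays had 1064, and the count lower was 1269 where it had 1192. Over the arrays left out in turn the member count higher ran from 2 to 5, with 2 without STK38 shRNA replicate 3 or 5 or non-target replicate 2.

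**Figure D4:**
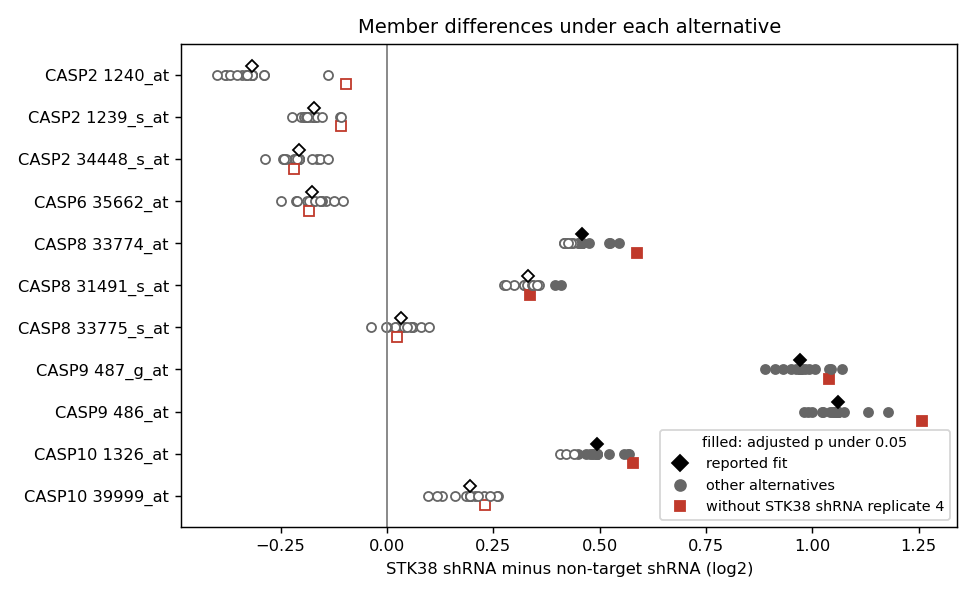
Difference (log2) of each tested member probe set in the reported fit (diamond), without STK38 shRNA replicate 4 (red square) and under the other alternatives (grey circles). Filled symbols have an adjusted p under 0.05. The CASP9 symbols are all filled and lie between 0.89 and 1.26, while those of CASP8 33774_at and CASP10 1326_at are partly open.

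By the root mean square difference between profiles over the 10 arrays, each centred on its own mean, the genes most like CASP9 487_g_at were GABARAP (0.10), PIK3IP1 (0.13) and JUND (0.14). They encode an autophagosome protein, an inhibitor of PI3 kinase and an AP-1 factor. GABARAP rose by 0.98, PIK3IP1 by 0.84 and JUND by 1.19. For CASP8 33774_at they were TTLL5 (0.095), RNF40 (0.10) and TRAPPC6A (0.11). Of these TRAPPC6A was called (0.50, limma adjusted p = 0.00254), and TTLL5 (0.36) and RNF40 (0.32) were not. At TTLL5 and RNF40, STK38 shRNA replicates 1, 2, 3 and 5 read above every control. Replicate 4 read below every control at both (3.12 and 2.35), so the missing calls do not show that these genes were unchanged. Likeness counts the low value of STK38 shRNA replicate 4 along with the group difference.

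The other genes of the pathway were counted from 6 lists at 1 probe set per gene, the brightest, where 15.2% of 5403 genes were called higher, 15.8% lower and 31.0% in either direction, with a median of 0.019. On the mitochondrial side, 4 of 8 tested genes were called lower and 0 higher (0 at an unadjusted p under 0.05 in limma), with a median of -0.37. VDAC1, the main channel of the outer mitochondrial membrane, read 7.54 to 7.96 with the STK38 shRNA and 9.14 to 9.35 in the controls, a fall of 1.51 (SE 0.083, limma adjusted p = 1.25e-08), and another of its 3 probe sets, 40198_at, also fell by 1.51. PPIF, cyclophilin D of the permeability transition pore, fell by 0.73, the adenine nucleotide carrier SLC25A4 by 0.49 and HTRA2, a protease that relieves XIAP inhibition, by 0.48. STK38 shRNA replicate 4 was the lowest array at PPIF (3.16, the others of its group 3.94 to 4.37) and enlarged that fall. The same was so at HTRA2 (2.25, the others of its group 2.68 to 2.94). HTRA2 exceeded background on 4 arrays with the STK38 shRNA and on all 5 controls, and its call was lost without non-target replicate 3 (limma adjusted p = 0.0518). CYCS, the cytochrome c that triggers APAF1, was bright and not called, with 10.15 to 10.48 against 10.06 to 10.55.

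On the death receptor side, 1 of 9 tested genes was called higher and 0 lower (0 at an unadjusted p under 0.05 in limma), with a median of 0.04. It was PEA15, a death effector domain protein that binds FADD and caspase-8. PEA15 read 5.30, 5.00, 5.34, 4.69 and 5.11 against 3.85, 3.64, 3.76, 3.78 and 3.46, a rise of 1.39 (SE 0.14, limma adjusted p = 3.68e-06), or 2.62-fold. CRADD, the adaptor of caspase-2, had 0.27 (limma adjusted p = 0.123) and was called without STK38 shRNA replicate 4 (limma adjusted p = 0.0464) or non-target replicate 5 (limma adjusted p = 0.0161). FAS had 0.14 and TRADD 0.088, neither called. TRADD had 0.24 without STK38 shRNA replicate 4 and was not called there either (limma adjusted p = 0.0968). FADD, with a difference of -0.018 (95% interval -0.31 to 0.27), and CFLAR, the caspase-8 homologue without protease activity, with 0.035 (-0.22 to 0.29), were not called. The minus sign of FADD rests on STK38 shRNA replicate 4, which read 3.52. The others of its group had 3.93 to 4.20 and the controls 3.84 to 4.09.

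Among the other genes of the IAP family and the regulators of XIAP, 1 of 5 tested genes was called higher and 0 lower (0 at an unadjusted p under 0.05 in limma), with a median of 0.11. BIRC2, the ubiquitin ligase cIAP1, read 6.30, 5.98, 6.01, 5.94 and 6.22 against 5.80, 5.43, 5.46, 5.59 and 5.79, a rise of 0.48 (SE 0.12, limma adjusted p = 0.00555) with no overlap. SIAH1, a ubiquitin ligase, had 0.47 (limma adjusted p = 0.0550) and was called without STK38 shRNA replicate 1 (limma adjusted p = 0.00616) or 4 (limma adjusted p = 0.0472). TAB1, an XIAP partner in signalling, had 0.11 and BIRC5, survivin, 0.040, neither called. TAB1 had 0.235 without STK38 shRNA replicate 4 and was not called there (limma adjusted p = 0.176). Of the other caspases 2 were tested, CASP1 and CASP5, and 1 was called lower. CASP1, the inflammatory caspase, fell by 0.49 (SE 0.12, limma adjusted p = 0.00628) at 574_s_at, while its other probe set, 39320_at, had -0.069 (limma adjusted p = 0.760). CASP5 was above background on 0 arrays and was not called.

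Of 17 tested caspase substrates 5 were called lower and 1 higher, with a median of -0.18. DFFA, the inhibitor and chaperone of the caspase-activated nuclease, read 4.10, 3.81, 4.02, 2.71 and 3.91 against 5.42, 5.47, 5.75, 5.80 and 5.42, a fall of 1.86 (SE 0.22, limma adjusted p = 1.64e-05), or 3.63-fold. It fell by 1.61 (limma adjusted p = 1.72e-08) without STK38 shRNA replicate 4. The nuclease itself, DFFB, had -0.028 (95% interval -0.23 to 0.18) and was not called. VIM, vimentin, fell by 1.48, LMNB1, the nuclear lamin B1, by 1.06 and PAK2, a kinase activated by caspase cleavage, by 1.06 at its brightest probe set. In the inflammasome list 1 of 4 tested genes was called higher and 1 lower, with a median of 0.06. NLRP1, called higher (limma adjusted p = 0.0240), was above background on 0 arrays, and its call was lost without non-target replicate 2, 3 or 4 (limma adjusted p between 0.0537 and 0.0616) and with the replicate number as a block (limma adjusted p = 0.0546). RIPK2, called lower (limma adjusted p = 0.00970), was above background on 1 STK38 shRNA array and 4 control arrays. IL1A and CARD8 were above background on 0 arrays and not called.

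**Figure D5:**
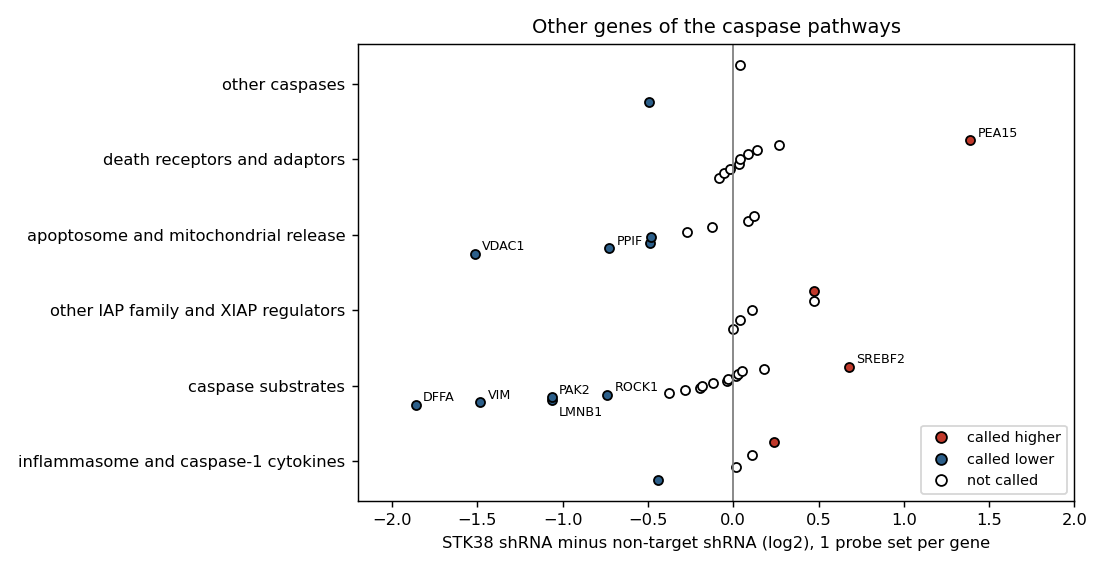
Log2 difference (STK38 shRNA minus non-target) of the tested genes of 6 lists, 1 point per gene. Red points were called higher, blue points lower and open points not called. DFFA at -1.86 and VDAC1 at -1.51 lie farthest left, and PEA15 at 1.39 farthest right.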

How the data were processed

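Total RNA of ST486 cells was hybridised to 1-colour HG-U95Av2 arrays, 5 per group, per the labels. The authors deposited log2 expression values for 12625 probe sets, and the submitters' processing notes name GCRMA and affy without a version. The table states no scale; log2 follows from GCRMA and the range of the values. GCRMA corrects background by probe sequence, normalizes across arrays and shrinks differences of dim probe sets. After removal of 67 controls, probe sets at or above the 40th percentile of the mean over all arrays (1.93) were fitted in R 4.3.3 with limma 3.58.1 (eBayes with trend, no covariate). Member probe sets under the filter had two-sided exact permutation tests in scipy 1.17.1. Plots used matplotlib 3.10.9. Symbols came from the platform annotation, updated through Entrez identifiers to RefSeq.

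Background controls were mouse, yeast and reverse-strand probe sets, and 6 of the 23 are of human ACTB and GAPDH, so the background may be high. "At least" folds compare the brighter group's mean with the dim group's, each dim array raised to its background where it lay lower. Named genes were all members, up to 4 per list (called first, then larger change) and the 3 nearest profiles of the 2 largest called members above background on all arrays. CYCS, FADD, CFLAR and DFFB were added after their values were seen. Members and lists were chosen with earlier results of these data known. The fit was tested on simulated data. The number of arrays limits the precision.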

Additional observations from a re-analysis of the deposited data

Results flagged for a closer look

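Within 5 of the 84 groups of 5 arrays examined (42 probe sets of members, STK38 and named pathway genes), 1 array lay far from the other 4, with a gap of more than 0.71 of the group's range. Chance gives about 1 in 20 groups. All 5 were the lowest value, on STK38 shRNA replicate 4. For CASP2 1240_at it read 2.05 where the others had 3.02 to 3.26. For CASP8 33774_at it read 5.23 against 5.76 to 5.91, and for CASP9 486_at 2.70 against 3.55 to 3.81. For STK38 370_at it read 2.46 against 2.88 to 2.95, and for DFFA 32047_at 2.71 against 3.81 to 4.10. Its part in the results was not tested beyond the fits without it.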

How the results depend on the processing

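The choices varied were scaling, filter, variance model, array weights, the replicate number as a block, and which arrays were kept. For counts alone, the probe set per gene and the background level were varied too. CASP9 kept its calls in all 18 alternative fits run, and CASP2 and CASP6 stayed uncalled with the same sign in these, as did CASP10 39999_at in the 17 in which it was tested. With single arrays left out, CASP8 33774_at ranged from 0.42 to 0.59, CASP8 31491_s_at from 0.28 to 0.41, CASP8 33775_s_at from -0.037 to 0.10 and CASP10 1326_at from 0.41 to 0.58. The count of members called higher ranged from 2 to 5. CASP8 31491_s_at was called with array weights (0.32), without trend (0.33) and after quantile normalization (0.40; limma adjusted p = 0.0384). With array weights, 1619 probe sets were called higher where the reported fit had 1064. Counts higher rose from 1 to 2 for death receptors (array weights, quantile normalization) and the IAP and XIAP list (the same, and a filter at the 60th percentile), and fell from 1 to 0 for the inflammasome (that filter, the replicate block). With arrays left out these 3 counts ranged from 1 to 2, 1 to 2 and 0 to 1. Among the genes named from the lists by the stated rule, CARD8 changed sign after quantile normalization (-0.005). With arrays left out CARD8 reached -0.047 and CASP5 -0.009. Genes named outside that rule, such as CYCS, FADD, CFLAR and DFFB, were not followed through the alternatives, so their sign changes are not listed. Deviations of same-numbered arrays from their group means had correlations of -0.21 to 0.19. So few pairs cannot settle whether the numbers pair the arrays. With the replicate block 4 member probe sets were called, as without it. At the 75th percentile of the controls, or without human controls, 7 and 9 member probe sets were above background on all arrays. Dim signal limits APAF1, XIAP, CASP4 and most of CASP10.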

Other observations

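Further caspase substrates, chosen after their values were seen, moved in both directions. ROCK1, the kinase that drives membrane blebbing once cut by caspases, read 2.92 to 3.64 with the STK38 shRNA and 3.77 to 4.20 in the controls, a fall of 0.74 (limma adjusted p = 0.00122). SREBF2, the regulator of sterol synthesis, rose by 0.68 (limma adjusted p = 4.53e-04), with 6.10 to 6.39 against 5.19 to 5.71. PARP1, a classic caspase target, was bright on all arrays and was not called (difference -0.038, limma adjusted p = 0.762). The probe sets of PAK2 disagreed: 1560_g_at fell by 1.44 and 1245_i_at by 0.98, while 1559_at had 0.21 and was not called (limma adjusted p = 0.391).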
